A study of Mus musculus with 12 samples.

Results

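Bladder mesenchyme was compared with urethral mesenchyme in mouse embryos at embryonic day E18.5, shortly before birth. The comparison covered every gene that passed a filter on low counts, 18805 of the 55228 genes in the deposited tables, measured in 6 of the 12 libraries of the study. Both groups came from untreated wildtype female embryos of the CD-1 strain, an outbred stock. Each group had 3 libraries, and each library was made from the pooled tissue of the females of 1 litter, so that the spread between libraries is a spread between litters. The lower urinary tract was incubated in cold trypsin, bladder and urethra were cut apart, and the epithelium of each was pulled off its mesenchyme with forceps. The remaining 6 libraries hold the same pair of tissues at E14.5. They took part in the low-count filter, the scaling and the estimate of the spread, and the stages are compared only at the end. With the E18.5 libraries alone, 18427 genes were tested. The comparison asks which genes distinguish the connective tissue and muscle layer of the bladder from those of the urethra late in gestation.

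The wall of the bladder is dominated by the detrusor, a smooth muscle that stores urine at low pressure and contracts when parasympathetic nerves release acetylcholine and ATP. The urethra has a thinner smooth muscle coat, surrounded over part of its length by a sphincter of striated muscle, and pelvic ganglia with autonomic neurons lie against the bladder neck and the urethra. Mesenchyme of both organs signals to the overlying epithelium through Hedgehog, Wnt, bone morphogenetic protein, fibroblast growth factor and retinoic acid pathways, and posterior Hox genes mark its position along the body axis.

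Total counts of the 6 libraries ranged from 21638684 to 36349777, and 3 counts corresponded to 0.0761 to 0.161 CPM. Levels are given in CPM, counts scaled to a fixed library total after TMM normalization, which adjusts for differences in composition between libraries, and as mean ± SD over n = 3 libraries. The TMM factors were 0.832 to 0.919 in the bladder libraries and 1.068 to 1.091 in the urethral libraries. Differences are given as log2 ratios ± SE, bladder over urethra, so that positive values mean a higher level in bladder. The SE was derived from the log2 ratio and the F statistic of its test, so it carries the spread shared with the E14.5 libraries. The p-values are from edgeR's quasi-likelihood test adjusted over all genes tested, and a gene is called where the adjusted p is under 0.05. The first principal component of the 6 libraries held 78.4% of the variance and separated bladder from urethra. Log2 levels correlated between libraries of 1 group at 0.980 to 0.987 and between groups at 0.901 to 0.918, over genes. Of all genes tested, 34.8% were called, 3482 higher in bladder (18.52%) and 3053 higher in urethra (16.2%). At least a 2-fold difference was reached by 1617 of these in bladder (8.599%) and 2067 in urethra (10.99%). The median log2 ratio over all genes was 0.05, against which the medians of gene lists below are to be read. Counts of called list members are likewise to be read against the 18.52% and 16.2% of all genes. The E14.5 libraries, which share in the estimate of the spread, were less alike. Replicate 1 of the E14.5 bladder group correlated with the other two at 0.971 and 0.972, and these with each other at 0.984. Among the E14.5 urethral libraries replicates 1 and 2 correlated at 0.965 and the other pairs at 0.978 and 0.980. Without replicate 1 of both E14.5 groups, 3585 genes were called higher in bladder and 3486 higher in urethra. Because these are bulk samples, fewer cells of a type and less RNA per cell cannot be told apart.

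**Figure D1:**
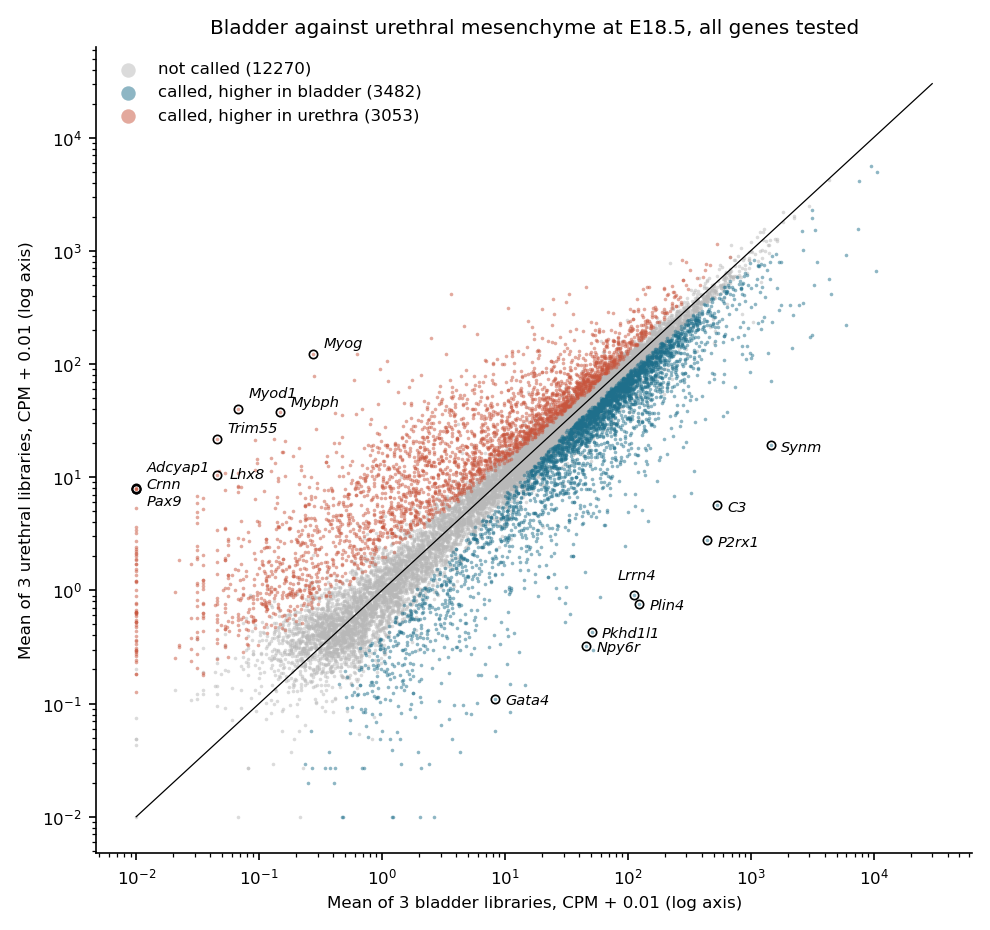
Mean level of each tested gene in the 3 bladder libraries (x axis) against its mean level in the 3 urethral libraries (y axis), in CPM on log axes, with a small constant added so that genes without a count can be drawn. The line marks equal levels, and colours mark the 3482 genes called higher in bladder (below the line) and the 3053 called higher in urethra (above it). Circles mark the 16 genes named for their folds, among called genes without overlap and with a mean of at least 5 CPM in the higher group.

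The labelled tissue was checked against genes of other cell types, since the separation by hand need not be complete. Epithelial transcripts were present in all 6 libraries. The summed level of 21 urothelial and epithelial genes was 11535 to 15178 CPM in the bladder libraries and 4024 to 6168 CPM in the urethral libraries, and 12 of the 21 were not called. The sums of 13 squamous epithelial genes overlapped, at 1895 to 2183 CPM in the bladder libraries and 1403 to 2207 CPM in the urethral libraries, and 6 of these genes were called higher in urethra. Neuronal genes went the other way, with a sum over 16 genes of 217 to 399 CPM in the bladder libraries and 1317 to 3769 CPM in the urethral libraries. Mesothelial genes, which mark the covering of the bladder dome, summed to 2165 to 3013 CPM in the bladder libraries and 684 to 891 CPM in the urethral libraries over 12 genes, and the sum of 14 myogenic regulators of skeletal muscle was 87.1 to 120.1 CPM in the bladder libraries and 456 to 586 CPM in the urethral libraries. None of the 21 epithelial or 16 neuronal genes was at 0 in a whole group. What part these cell types have in the differences of other genes described below was not tested.

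Before the gene groups, the genes with the largest folds among well expressed genes are given, 8 in each direction. The largest log2 ratio of the 8 in bladder was that of Plin4, a lipid droplet coat protein, which stood at 155, 122 and 91.4 CPM in bladder replicates 1 to 3 against 0.406, 0.697 and 1.14 CPM in urethral replicates 1 to 3. The groups did not overlap, with bladder higher (log2 ratio 7.36 ± 0.95, adjusted p = 0.00043). P2rx1, the ATP-gated cation channel of smooth muscle, had levels of 581, 497 and 253 CPM in bladder and 2.21, 2.42 and 3.65 CPM in urethra over replicates 1 to 3. Every bladder library lay above every urethral library (log2 ratio 7.32 ± 0.41, adjusted p = 7.90e-07). Synm, an intermediate filament protein of muscle, had 1980.4, 1544 and 858 CPM in the bladder libraries and 9.85, 27.3 and 20.3 CPM in the urethral libraries. All 3 bladder libraries were the higher ones (log2 ratio 6.26 ± 0.80, adjusted p = 0.000172). The complement component C3 reached 528 ± 143 against 5.62 ± 1.40 CPM (log2 ratio 6.56 ± 0.37, adjusted p = 8.01e-07). Gata4, a zinc finger transcription factor of heart and mesothelium, was at 8.33 ± 2.49 against 0.1001 ± 0.0175 CPM (log2 ratio 6.30 ± 0.46, adjusted p = 2.20e-06). Lrrn4, a leucine-rich repeat protein of mesothelial cells, was at 113 ± 20.7 against 0.906 ± 0.652 CPM. Npy6r, a neuropeptide Y receptor, was at 45.9 ± 25.4 against 0.313 ± 0.310 CPM, and Pkhd1l1, a large membrane protein, at 50.8 ± 7.45 against 0.422 ± 0.343 CPM. In each of these genes the lowest bladder library was above the highest urethral library. In GRCm38, P2rx1 spans chromosome 11, 72999103 to 73015200, Plin4 chromosome 17, 56100591 to 56109803, Synm chromosome 7, 67730160 to 67759742 and Gata4 chromosome 14, 63198922 to 63271692, as outer limits of the exons in the files. The fold moved by over 1.5 times with a library left out (log2 ratio given) for Lrrn4 (7.67 without urethral replicate 3), Npy6r (8.34 without urethral replicate 2) and Pkhd1l1 (7.82 without urethral replicate 3).

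Urethral mesenchyme was led by genes that were all but silent in the bladder. No count of Adcyap1, which encodes the neuropeptide PACAP, was found in any of the 3 bladder libraries, against 0.355, 12.99 and 10.5 CPM in the urethral libraries. Against a floor of 3 counts over the group this is at least a 179.8-fold difference, with the first urethral library far below the other two. Crnn, the squamous epithelial protein cornulin (4.47, 14.6 and 4.38 CPM in the urethral libraries), and the paired box factor Pax9 (7.54, 7.66 and 8.18 CPM in the urethral libraries) were also without a bladder count and differed at least 178-fold and 199-fold. Myod1, the myogenic factor that commits cells to skeletal muscle, had 4 counts in all in bladder and 46.8, 42.5 and 31.5 CPM in the urethral libraries (log2 ratio -9.47 ± 1.19, adjusted p = 0.000153). Myog, which drives the differentiation of muscle precursors, followed with 142, 126 and 96.4 CPM in the urethral libraries (log2 ratio -8.73 ± 1.17, adjusted p = 0.000242). Trim55, a ligase of the skeletal sarcomere, and Lhx8, a LIM homeobox factor, had 2 bladder counts each, and the ratios of summed counts were 837 (95% counting interval 231 to 6916) and 408 (113 to 3372). Mybph, a myosin-binding protein of skeletal muscle, stood at 0.139 ± 0.0705 against 37.98 ± 8.54 CPM, but 49.9% of its exons overlap a gene on the opposite strand, so its level is uncertain. In GRCm38, Adcyap1 spans chromosome 17, 93199017 to 93206537, Pax9 chromosome 12, 56691767 to 56712822, Myod1 chromosome 7, 46376474 to 46379099 and Myog chromosome 1, 134289989 to 134292548. With each library left out in turn, ratios of summed counts were at least 107 to 295 for Adcyap1, at least 105 to 221 for Crnn, at least 118 to 204 for Pax9, 496 to 938 for Trim55 (at least 422 without bladder replicate 2) and 242 to 439.6 for Lhx8 (at least 206 without bladder replicate 2). A left-out library moved the fold by over 1.5 times, to the log2 ratio given, for Myog (-8.13 without bladder replicate 1 and -10.34 without bladder replicate 3). The call also ended in limma-voom for Adcyap1 (adjusted p = 0.0576).

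Genes called with at least a 2-fold difference were also ranked by the difference in level, and among these the bladder was led by muscle and matrix. Myh11, the smooth muscle myosin heavy chain, had 14439, 10359.5 and 6847 CPM in bladder replicates 1 to 3 against 713, 553 and 708 CPM in urethral replicates 1 to 3. The bladder libraries spread widely, but the lowest of them was still above the highest urethral library (log2 ratio 4.002 ± 0.39, adjusted p = 1.97e-05). Actg2 and Acta2, the smooth muscle actins, stood at 5986 ± 2115 against 221 ± 36.3 CPM and 5973 ± 1679 against 928 ± 97.9 CPM. Flna, an actin crosslinker, was at 7517 ± 2539 against 1559 ± 203 CPM, Tagln, an actin-binding protein of smooth muscle, at 4540.1 ± 1947 against 414 ± 41.3 CPM, and Col1a1, a chain of type I collagen, at 10700.2 ± 1039 against 4979 ± 381 CPM. Opposite-strand exons cover 67.9% of those of Tagln. In urethra the largest excess in this ranking was that of Col12a1, a fibril-associated collagen, at 528 ± 120.5 against 1148 ± 280.5 CPM. It was followed by the neurite growth proteins Dpysl3 (274 ± 63.04 against 822 ± 179 CPM) and Nrep (297 ± 38.5 against 789 ± 47.7 CPM), the neurofilaments Nefm (45.7 ± 14.9 against 480.2 ± 265 CPM) and Nefl (33.3 ± 15.8 against 414 ± 200.2 CPM), and embryonic myosin Myh3 (3.62 ± 3.38 against 416 ± 105 CPM). Exons of Nefl and Nefm overlap on opposite strands (32.8% of Nefl). The fold moved by over 1.5 times with a library left out (log2 ratio given) for Myh3 (-7.96 without bladder replicate 2).

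Genes of the smooth muscle contractile apparatus were higher in bladder in 23 of 24 members, all by at least 2-fold, with a median log2 ratio of 2.83. The libraries did not overlap in these 23, against 27.9% of all genes with bladder wholly above urethra. Their summed level was 44835 to 80901 CPM in the bladder libraries and 7898 to 8607 CPM in the urethral libraries. Des, the intermediate filament of muscle, had levels of 3108, 4251 and 1758 CPM in bladder and 170.1, 198 and 147 CPM in urethra over replicates 1 to 3. No urethral library reached the lowest bladder library (log2 ratio 4.15 ± 0.66, adjusted p = 0.000669). Actg2, the enteric smooth muscle actin and the most unequal of the actins in this list, reached a log2 ratio of 4.76 ± 0.36, against 2.69 ± 0.27 for Acta2. Myl9, the regulatory light chain, and Vcl, which links actin to adhesions, had smaller differences of 2.65 and 2.35. The exception was Itga8, an integrin chain of mesenchyme and smooth muscle, which was higher in urethra at 56.6 ± 13.7 against 116 ± 29.2 CPM (log2 ratio -1.04 ± 0.21, adjusted p = 0.00182). Its 3 urethral libraries lay above all 3 bladder libraries.

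Promoters of these genes are shown because many smooth muscle genes are controlled by serum response factor, whose binding site is the CArG box, here 2 C, 6 A or T and 2 G in a row, searched on both strands. Of the 23 members higher in bladder, 20 had a promoter in the RefSeq table (GRCm38.p6), and 2 of these 20 (10%) held the motif in the 250 bases before the start site, against 1.62% of 27018 genes. The bases are printed 5′ to 3′ on the gene's strand, the motif in capitals, for Myl9 at chr2:156775214-156775463 (plus strand) and Vcl at chr14:20929148-20929397 (plus strand).
Myl9: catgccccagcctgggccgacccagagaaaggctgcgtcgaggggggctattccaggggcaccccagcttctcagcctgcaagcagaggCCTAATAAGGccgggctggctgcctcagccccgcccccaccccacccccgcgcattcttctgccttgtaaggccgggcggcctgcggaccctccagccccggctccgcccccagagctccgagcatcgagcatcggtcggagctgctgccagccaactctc
Vcl: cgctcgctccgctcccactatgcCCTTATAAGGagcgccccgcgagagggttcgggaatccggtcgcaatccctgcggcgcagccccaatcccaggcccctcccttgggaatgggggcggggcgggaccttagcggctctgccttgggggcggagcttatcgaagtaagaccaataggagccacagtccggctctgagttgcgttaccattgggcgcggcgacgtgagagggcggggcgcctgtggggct
The box began 161 bases before the start in Myl9 and 227 bases before it in Vcl. The other 18 promoters held no match in this window, which says only that these letters are not there. Per kb of exon, Myl9 had 1799 CPM in bladder and 287 CPM in urethra, and Vcl 150.4 CPM in bladder and 29.4 CPM in urethra. Opposite-strand exons cover 25.5% of those of Vcl.

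The regulators of smooth muscle were divided, with 6 of 15 tested members higher in bladder and 4 higher in urethra, where 34.8% of all genes were called. Gata6 (121 ± 21.5 against 18.3 ± 3.24 CPM, log2 ratio 2.73 ± 0.35, adjusted p = 0.000136) and Myocd, the coactivator of serum response factor that drives the smooth muscle programme (101 ± 40.3 against 17.3 ± 2.64 CPM, log2 ratio 2.54 ± 0.34, adjusted p = 0.000175), showed the largest bladder excess. Srf, which encodes the factor itself, had 165, 160.2 and 106 CPM in the bladder libraries and 62.3, 66.3 and 62.1 CPM in the urethral libraries. Bladder was the higher tissue in each library (log2 ratio 1.18 ± 0.18, adjusted p = 0.000379). Fhl1, a LIM protein of muscle, was the most abundant of the 6 at 1148 ± 505 against 232 ± 11.4 CPM, and Klf4 and Fhl2 completed them with log2 ratios of 1.84 and 1.10. Higher in urethra were Prrx1, a homeobox factor of limb and connective tissue mesenchyme (49.8 ± 8.997 against 235 ± 35.3 CPM, log2 ratio -2.24 ± 0.29, adjusted p = 0.000141), Hey2 (log2 ratio -1.44), Mef2c (43.4 ± 1.66 against 86.7 ± 10.3 CPM) and Hand2 (log2 ratio -0.55). Without bladder replicate 1, urethra replicate 2 or urethra replicate 3, 2 of these 4 remained called. The call ended, at the adjusted p given, for Hey2 (0.0708 without bladder replicate 1, 0.071 without urethral replicate 2 and 0.051 without urethral replicate 3) and Hand2 (0.0511 to 0.217 without bladder replicates 1, 2 and 3 or urethral replicates 2 and 3). Further, the call ended in limma-voom for Hand2 (adjusted p = 0.0502) and with the E18.5 libraries fitted alone for Hand2 (adjusted p = 0.0503).

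Receptors through which nerves and hormones act on bladder muscle were higher in bladder in 6 of 18 members and higher in urethra in 4. Over all genes these shares were 18.52% and 16.2%. After P2rx1 the largest was Tacr2, the neurokinin A receptor, with 16.97, 12.01 and 10.1 CPM in bladder replicates 1 to 3 against 0.0761, 0.492 and 0.263 CPM in urethral replicates 1 to 3. The lowest bladder library exceeded the highest urethral one (log2 ratio 5.63 ± 0.64, adjusted p = 4.02e-05). The muscarinic receptors, which carry the cholinergic contraction, were unequal. Chrm3, the subtype that triggers contraction, was at 20.3 ± 9.51 against 4.87 ± 0.472 CPM (log2 ratio 2.06 ± 0.35, adjusted p = 0.000617), and Chrm2 at 31.8 ± 11.2 against 11.3 ± 5.56 CPM (log2 ratio 1.49 ± 0.52, adjusted p = 0.0447). Npy1r and Agtr1a, receptors for neuropeptide Y and angiotensin, had log2 ratios of 1.38 and 0.89. The endothelin receptor Ednra went the other way with levels of 17.9, 22.4 and 15.1 CPM in bladder and 149, 129 and 124 CPM in urethra over replicates 1 to 3. Levels in urethra were above those in bladder throughout (log2 ratio -2.86 ± 0.27, adjusted p = 1.51e-05). So did the cannabinoid receptor Cnr1 (log2 ratio -3.01 ± 0.50, adjusted p = 0.000756), the oxytocin receptor Oxtr (log2 ratio -2.55 ± 0.55, adjusted p = 0.00323) and the prostaglandin F receptor Ptgfr (log2 ratio -2.41 ± 0.58, adjusted p = 0.00598). Calls that ended with 1 library left out (adjusted p) were those of Chrm2 (0.0513 to 0.154 without bladder replicates 1, 2 and 3 or urethral replicates 1 and 3) and Agtr1a (0.0549 to 0.124 without bladder replicates 1, 2 and 3 or urethral replicates 1 and 2). A left-out library moved the fold by over 1.5 times, to the log2 ratio given, for Tacr2 (6.26 without urethral replicate 2). Calls were lost as well without the low-count filter for Agtr1a (adjusted p = 0.0586) and Chrm2 (adjusted p = 0.134).

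Among 20 channels and calcium-handling genes, 9 were higher in bladder and 7 in urethra, where 34.8% of all genes were called. Kcnmb1, the muscle subunit of the large-conductance calcium-activated potassium channel, had 123, 103 and 73.9 CPM in the bladder libraries and 4.87, 4.38 and 5.61 CPM in the urethral libraries. Between the tissues there was no overlap, bladder being higher (log2 ratio 4.33 ± 0.25, adjusted p = 7.31e-07). Jph2, which ties the sarcoplasmic reticulum to the cell membrane, was at 504 ± 143 against 73.0 ± 1.30 CPM (log2 ratio 2.79 ± 0.31, adjusted p = 4.35e-05), and the potassium channel Kcnq5 at 32.4 ± 11.7 against 7.18 ± 1.91 CPM (log2 ratio 2.18 ± 0.30, adjusted p = 0.000162). Sln, which inhibits the calcium pump of muscle, had 2 counts in all in bladder and 5.63, 4.22 and 3.45 CPM in the urethral libraries. With each library left out in turn, ratios of summed counts were 113 to 195 for Sln (at least 68.4 without bladder replicate 3).

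Skeletal muscle genes separated into a larger set that was higher in urethra and a smaller set that was higher in bladder. Of 14 myogenic regulators, 12 were higher in urethra, with a median log2 ratio of -6.85 (-5.76 with Myf6 and Pax3 at their lower bounds), and their libraries did not overlap (24.2% of all genes had urethra wholly above bladder). Beside Myod1 and Myog, Myf6 had no bladder count and 4.95, 2.75 and 2.60 CPM in the urethral libraries, at least 91.5-fold more. Pax3, a factor of muscle precursors, likewise had none, against 1.57, 0.942 and 1.11 CPM in the urethral libraries, at least 32.1-fold more. Pax7, the marker of satellite cells, was at 0.125 ± 0.217 against 13.2 ± 3.11 CPM. With each library left out in turn, ratios of summed counts were at least 54.2 to 105 for Myf6 and at least 18.99 to 34.7 for Pax3. The fold moved by over 1.5 times with a library left out (log2 ratio given) for Myog (-8.13 without bladder replicate 1 and -10.34 without bladder replicate 3) and Pax7 (-6.39 without bladder replicate 1, -11.57 without bladder replicate 2 and -6.30 without bladder replicate 3).

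Of 20 genes of the skeletal sarcomere, 9 were higher in urethra and 5 in bladder. Ttn, the giant spring protein of all striated muscle, had 0.149, 0.215 and 0.448 CPM in bladder replicates 1 to 3 against 113, 77.3 and 45.8 CPM in urethral replicates 1 to 3. The groups did not overlap, with urethra higher (log2 ratio -8.10 ± 1.26, adjusted p = 0.000604). Embryonic myosin Myh3 had levels of 2.02, 7.51 and 1.34 CPM in bladder and 505, 442 and 301 CPM in urethra over replicates 1 to 3. Every urethral library lay above every bladder library (log2 ratio -6.92 ± 1.45, adjusted p = 0.00363). Tnni1, the slow troponin I, and the light chains Mylpf and Myl1 followed with log2 ratios of -5.999, -6.57 and -5.35. In the same libraries, Acta1, skeletal alpha-actin, was higher in bladder, with 3463, 3692 and 2342 CPM in the bladder libraries and 182, 190.4 and 165 CPM in the urethral libraries. All 3 bladder libraries were the higher ones (log2 ratio 4.14 ± 1.32, adjusted p = 0.0315). Ckm, muscle creatine kinase, had 646, 689 and 463 CPM in bladder replicates 1 to 3 against 38.2, 37.4 and 28.9 CPM in urethral replicates 1 to 3. No urethral library reached the lowest bladder library (log2 ratio 4.10 ± 1.15, adjusted p = 0.0171). Tnnt3, the fast troponin T, was at 280.2 ± 116 against 43.5 ± 9.81 CPM (log2 ratio 2.69 ± 0.38, adjusted p = 0.00033), Myom1, a protein of the M line, at 295 ± 72.4 against 51.2 ± 6.93 CPM (log2 ratio 2.52 ± 0.32, adjusted p = 0.000137), and Myh2, a fast myosin heavy chain, at 26.1 ± 18.6 against 2.54 ± 0.882 CPM (log2 ratio 3.36 ± 0.65, adjusted p = 0.0019). In each of these 5 genes the bladder libraries lay above all urethral libraries, while Myod1, Myog and Ttn were near 0 in the same bladder libraries. The count of 5 fell to 3 with any urethral library left out, without the low-count filter and in DESeq2, and was 6 with the E18.5 libraries fitted alone. Without single E18.5 libraries the call was lost (adjusted p) for Acta1 (0.0513 to 0.0981 over the 6 libraries, each left out in turn) and Ckm (0.0626 without urethral replicate 1, 0.062 without urethral replicate 2 and 0.0678 without urethral replicate 3). A left-out library moved the fold by over 1.5 times, to the log2 ratio given, for Ttn (-8.76 without bladder replicate 3), Myh3 (-7.96 without bladder replicate 2), Myh2 (2.77 without bladder replicate 1) and Myog (-8.13 without bladder replicate 1 and -10.34 without bladder replicate 3). The call also ended without the low-count filter for Acta1 (adjusted p = 0.105) and Ckm (adjusted p = 0.0673). With the 6 E18.5 libraries fitted alone, the adjusted p was 5.84e-06 for Acta1 and 5.13e-06 for Ckm, and with the replicate number as a block 5.14e-05 and 1.88e-05.

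**Figure D2:**
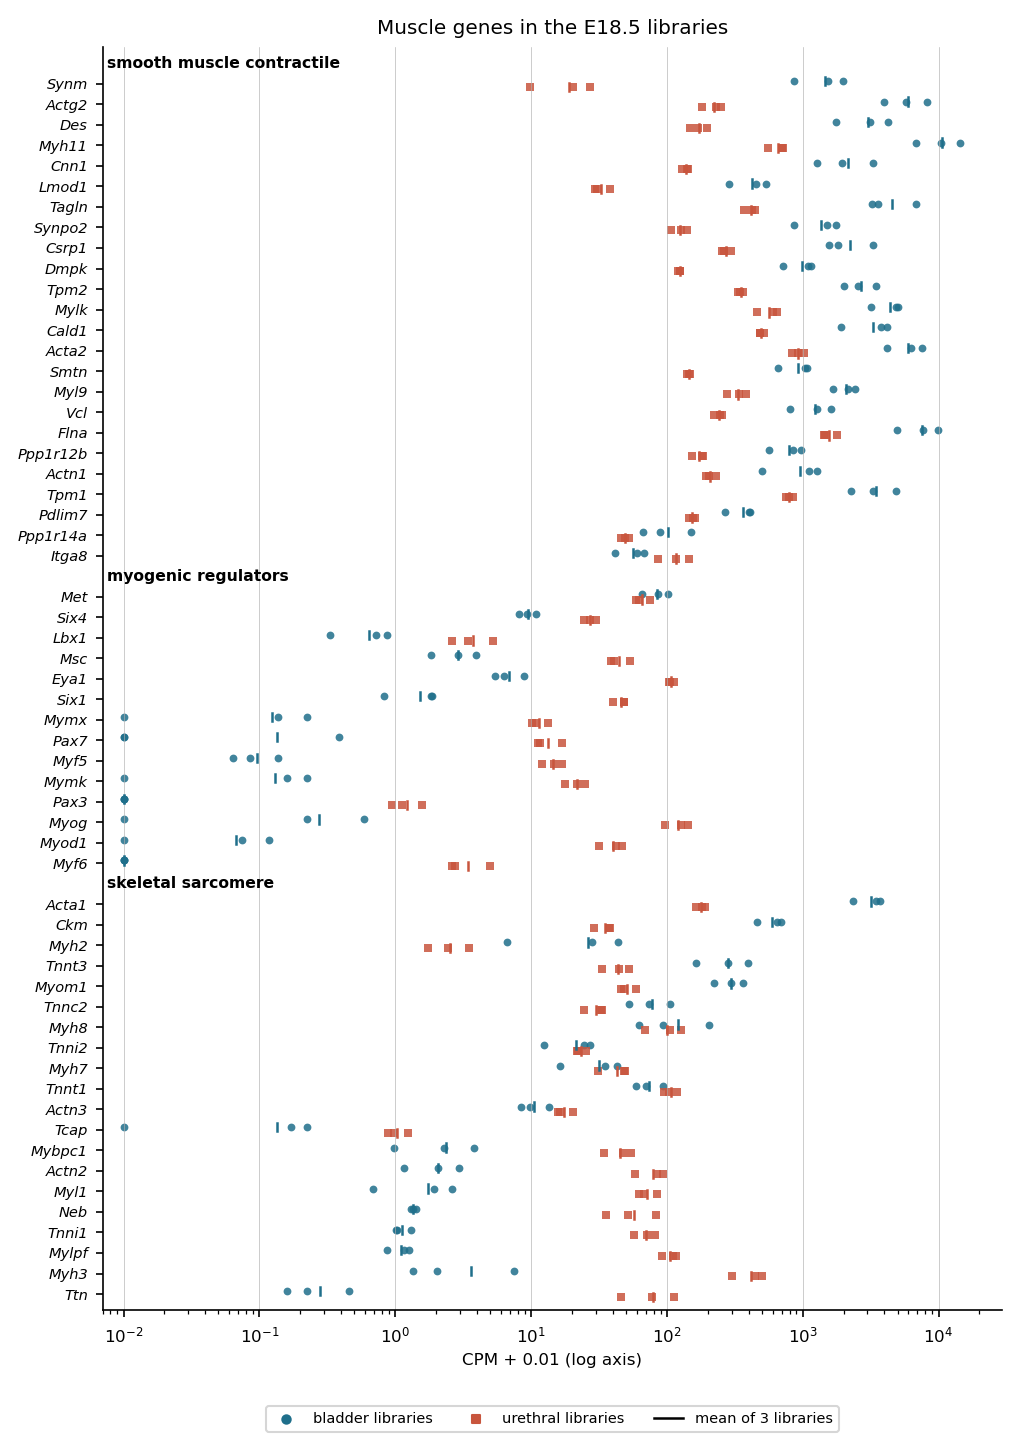
Level of the tested smooth muscle contractile genes, myogenic regulators and skeletal sarcomere genes in each of the 6 libraries (CPM with a small constant added, log axis), with circles for bladder, squares for urethra and a bar at each mean. All smooth muscle contractile genes but Itga8 lie higher in bladder, as do Acta1, Ckm, Myh2, Tnnt3 and Myom1, whereas 12 of the 14 myogenic regulators and 9 of the 20 sarcomere genes are called higher in urethra.

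Of 15 genes of the nerve-muscle endplate and the triad, where the membrane signal releases calcium, 12 were higher in urethra (median -3.95). Chrnd, a subunit of the muscle acetylcholine receptor, stood at 0.0571 ± 0.0540 against 7.401 ± 1.74 CPM (log2 ratio -7.02 ± 0.96, adjusted p = 0.000337). Cacna1s, the voltage sensor of skeletal muscle, stood at 0.0571 ± 0.0540 against 10.9 ± 3.20 CPM (log2 ratio -7.58 ± 1.42, adjusted p = 0.00173). The member that was higher in bladder was Jph1, a junctophilin of skeletal muscle, at 17.7 ± 1.92 against 8.84 ± 1.13 CPM (log2 ratio 1.005 ± 0.17, adjusted p = 0.000741). With the replicate number as a block, and also with the E18.5 libraries fitted alone, 3 members were higher in bladder instead of 1.

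Promoters of skeletal muscle genes are shown because the myogenic factors bind E-boxes, of which CAGCTG is a preferred form. The motif reads the same on both strands. Of 33 members of the 3 skeletal lists higher in urethra, 19 had a promoter in the table, and 9 of the 19 (47.4%) held CAGCTG in the 250 bases before a start site, against 14.7% of 27018 genes. The 3 most abundant of these 9 in urethra are printed 5′ to 3′ on the gene's strand with the motif in capitals. They are Mylpf at chr7:127211358-127211607 (plus strand), Myl1 at chr1:66945057-66945306 (minus strand) and Tnni1 at chr1:135799171-135799420 (plus strand, 1 of 2 start sites in the table).
Mylpf: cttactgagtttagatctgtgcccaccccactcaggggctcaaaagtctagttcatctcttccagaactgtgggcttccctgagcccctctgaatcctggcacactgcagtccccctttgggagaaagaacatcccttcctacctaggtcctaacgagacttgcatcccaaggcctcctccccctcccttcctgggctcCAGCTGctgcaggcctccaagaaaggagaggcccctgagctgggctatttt
Myl1: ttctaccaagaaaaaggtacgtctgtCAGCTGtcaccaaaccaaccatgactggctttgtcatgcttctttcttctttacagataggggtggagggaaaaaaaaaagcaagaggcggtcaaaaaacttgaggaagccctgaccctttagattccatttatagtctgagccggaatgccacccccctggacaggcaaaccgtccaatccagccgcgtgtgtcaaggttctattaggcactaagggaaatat
Tnni1: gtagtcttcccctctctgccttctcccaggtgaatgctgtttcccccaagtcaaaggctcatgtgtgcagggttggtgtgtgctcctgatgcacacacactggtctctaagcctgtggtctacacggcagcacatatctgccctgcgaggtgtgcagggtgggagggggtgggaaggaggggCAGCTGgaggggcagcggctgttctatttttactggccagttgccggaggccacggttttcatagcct
The motif began 51, 224 and 68 bases before the start site. Per kb of exon, urethra had 99.6 CPM for Mylpf, 34.5 CPM for Myl1 and 19.5 CPM for Tnni1, and bladder 1.02 CPM, 0.840 CPM and 0.307 CPM.

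Matrix genes differed in both directions. Collagens of fibrils and networks were higher in bladder in 9 of 16 members and in urethra in 2. Col5a3, a minor fibrillar chain, was at 145 ± 14.7 against 32.0 ± 10.7 CPM (log2 ratio 2.18 ± 0.43, adjusted p = 0.00231), and the basement membrane collagens Col15a1 and Col18a1 had log2 ratios of 1.37 and 1.196. The pair higher in urethra was Col12a1 (log2 ratio -1.12 ± 0.19, adjusted p = 0.000687) and Col8a1, a short-chain collagen, with levels of 22.5, 42.8 and 27.4 CPM in bladder and 169.8, 153 and 129 CPM in urethra over replicates 1 to 3. Urethra was the higher tissue in each library (log2 ratio -2.29 ± 0.49, adjusted p = 0.00418). Of 18 elastic fibre genes 5 were higher in urethra and 1 in bladder, a share called that was near the 34.8% of all genes (median -0.18). Ltbp2 was at 10.3 ± 1.67 against 69.9 ± 19.6 CPM (log2 ratio -2.77 ± 0.66, adjusted p = 0.00751), Ltbp1, which holds latent TGF-beta in the matrix, at 112 ± 16.6 against 294 ± 45.0 CPM (log2 ratio -1.39 ± 0.17, adjusted p = 5.59e-05), and Mfap2, Fbn2 and Mfap4 had log2 ratios of -1.35, -0.97 and -0.66. Efemp1, a fibulin, was higher in bladder (log2 ratio 0.91 ± 0.22, adjusted p = 0.00699), and 2 members were higher there with the replicate number as a block. Elastin itself did not differ detectably, with Eln at 1282 ± 258 against 1571 ± 84.9 CPM (log2 ratio -0.29 ± 0.49, adjusted p = 0.696). Leaving out 1 E18.5 library ended the call, with this adjusted p, of Mfap4 (0.0592 without bladder replicate 3 and 0.0608 without urethral replicate 1).

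Proteoglycan and matricellular genes were higher in bladder in 7 of 19 members and in urethra in 1, together a share not far from the 34.8% of all genes. Prelp, a leucine-rich repeat proteoglycan, had 153, 130.1 and 76.6 CPM in the bladder libraries and 17.6, 18.1 and 11.7 CPM in the urethral libraries. The lowest bladder library exceeded the highest urethral one (log2 ratio 2.92 ± 0.37, adjusted p = 0.000135). Tnxb, tenascin X, was at 254 ± 72.9 against 37.9 ± 13.2 CPM (log2 ratio 2.75 ± 0.44, adjusted p = 0.000725), and Fmod, fibromodulin, at 149 ± 65.3 against 37.3 ± 15.4 CPM (log2 ratio 1.995 ± 0.35, adjusted p = 0.00101). Tnc, tenascin C, was the member higher in urethra at 139 ± 54.6 against 416 ± 137 CPM (log2 ratio -1.58 ± 0.50, adjusted p = 0.03). Cartilage genes were higher in urethra in 8 of 12 members (median -1.80). Col2a1, the fibrillar collagen of cartilage, had 0.149, 0.322 and 0.128 CPM in bladder replicates 1 to 3 against 10.4, 3.93 and 11.9 CPM in urethral replicates 1 to 3. Levels in urethra were above those in bladder throughout (log2 ratio -5.53 ± 0.67, adjusted p = 8.74e-05). Col9a1, Col9a2 and the link protein Hapln1 followed with log2 ratios of -3.63, -2.28 and -1.88. The call ended, at the adjusted p given, for Tnc (0.0621 to 0.106 without bladder replicates 2 and 3 or urethral replicates 1 and 2). Further, the call ended without the low-count filter for Tnc (adjusted p = 0.0946).

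Factors that pattern mesenchyme were higher in urethra in 19 of 39 members and higher in bladder in 6 (median -0.97). Six2, a homeobox factor of progenitor cells, had levels of 0.486, 0.697 and 0.864 CPM in bladder and 47.4, 38.1 and 33.4 CPM in urethra over replicates 1 to 3. Between the tissues there was no overlap, urethra being higher (log2 ratio -5.84 ± 0.37, adjusted p = 1.08e-06). Isl1, a LIM homeobox factor of pelvic and genital mesenchyme and of neurons, had 8.41, 8.96 and 13.02 CPM in the bladder libraries and 121, 117 and 114 CPM in the urethral libraries. The groups did not overlap, with urethra higher (log2 ratio -3.53 ± 0.43, adjusted p = 0.000126). Among the factors higher in bladder, after Gata4, were Tbx20 (60.9 ± 24.9 against 10.6 ± 3.24 CPM, log2 ratio 2.53 ± 0.54, adjusted p = 0.00378), a T-box factor of the heart, and Msx2 (34.8 ± 8.30 against 8.91 ± 2.36 CPM, log2 ratio 1.97 ± 0.41, adjusted p = 0.00256). The bicoid-type factor Pitx1 had a log2 ratio of 1.40. Posterior Hox genes were higher in urethra in 8 of 14 members (median -0.84). Hoxd13, the most posterior gene of its cluster, had 26.3, 25.4 and 22.6 CPM in bladder replicates 1 to 3 against 118, 95.3 and 102 CPM in urethral replicates 1 to 3. Every urethral library lay above every bladder library (log2 ratio -2.09 ± 0.14, adjusted p = 1.26e-06). Hoxd12 had 6.87 ± 0.879 against 29.9 ± 7.07 CPM (log2 ratio -2.12 ± 0.20, adjusted p = 1.36e-05). The members Hoxc9 and Hoxc10 had log2 ratios of -2.55 and -2.44. With the replicate number as a block, 1 Hox gene was higher in bladder.

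Of the signalling genes, those of retinoic acid leaned to urethra, with 11 of 15 members higher there (median -1.07). Aldh1a3, an enzyme that makes retinoic acid, had levels of 3.48, 2.25 and 3.39 CPM in bladder and 41.2, 74.2 and 33.2 CPM in urethra over replicates 1 to 3. All 3 urethral libraries were the higher ones (log2 ratio -4.01 ± 0.30, adjusted p = 2.91e-06). Stra6, the receptor that takes up retinol, was at 1.71 ± 1.39 against 45.0 ± 2.02 CPM (log2 ratio -4.80 ± 0.44, adjusted p = 1.87e-05), and the binding protein Crabp2 at 3.03 ± 0.495 against 44.9 ± 5.17 CPM (log2 ratio -3.89 ± 0.17, adjusted p = 1.29e-07). The 2 members higher in bladder were Aldh1a1, another enzyme of retinoic acid synthesis, at 25.5 ± 5.99 against 10.6 ± 3.01 CPM (log2 ratio 1.26 ± 0.43, adjusted p = 0.0403), and the retinol carrier Rbp4 at 39.5 ± 7.91 against 16.8 ± 4.03 CPM (log2 ratio 1.23 ± 0.42, adjusted p = 0.0398). Of 15 Hedgehog pathway genes 2 were called, both higher in urethra, a smaller share than the 34.8% of all genes. Foxf2, a forkhead target of the pathway, was at 17.1 ± 0.525 against 86.1 ± 17.9 CPM (log2 ratio -2.34 ± 0.26, adjusted p = 3.87e-05), and the ligand Ihh at 0.915 ± 0.399 against 4.06 ± 0.543 CPM (log2 ratio -2.12 ± 0.71, adjusted p = 0.0348). With the E18.5 libraries fitted alone, 4 Hedgehog genes were higher in urethra and 2 in bladder. Calls that ended with 1 library left out (adjusted p) were those of Aldh1a1 (0.065 to 0.135 without bladder replicates 2 and 3 or urethral replicates 1, 2 and 3), Rbp4 (0.0644 to 0.128 without bladder replicates 1, 2 and 3 or urethral replicates 1 and 2) and Ihh (0.0601 to 0.113 without bladder replicates 1 and 2 or urethral replicates 1, 2 and 3). The fold moved by over 1.5 times with a library left out (log2 ratio given) for Stra6 (-5.58 without bladder replicate 2). Calls were lost as well without the low-count filter for Aldh1a1 (adjusted p = 0.116), Ihh (adjusted p = 0.0806) and Rbp4 (adjusted p = 0.115), in limma-voom for Ihh (adjusted p = 0.0534) and with the replicate number as a block for Ihh (adjusted p = 0.054).

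**Figure D3:**
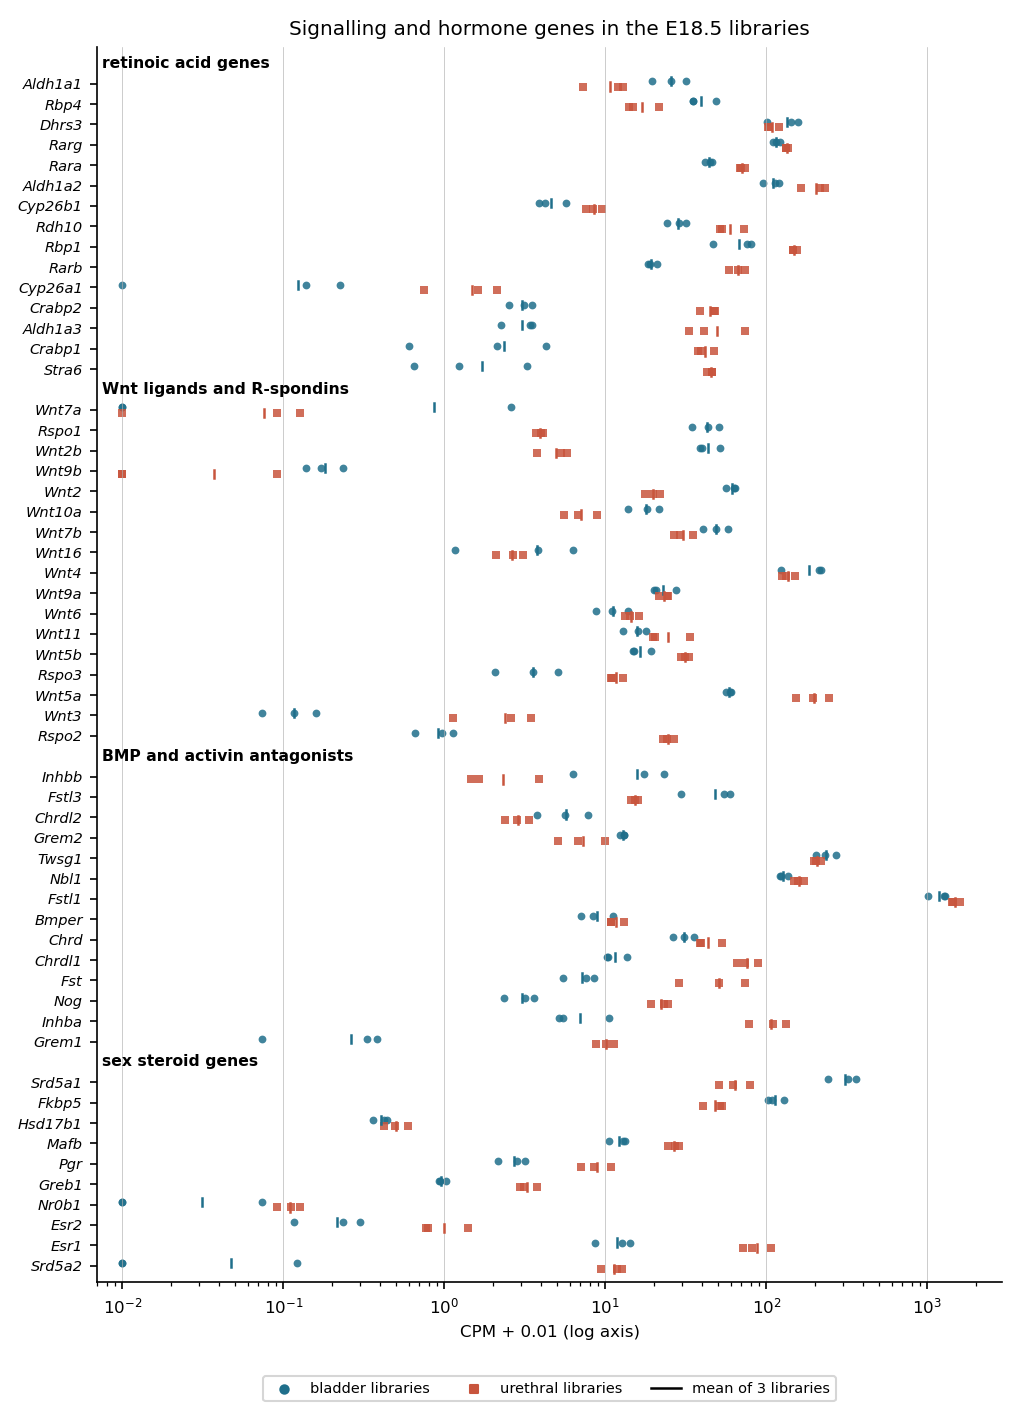
Level of tested members of the retinoic acid, Wnt ligand, BMP antagonist and sex steroid lists in each of the 6 libraries (CPM with a small constant added, log axis), with circles for bladder, squares for urethra and a bar at each mean. Members of 1 list lie on both sides, for example Rspo1 and Wnt2b higher in bladder and Rspo2 and Wnt5a higher in urethra.

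Wnt ligands and their R-spondin amplifiers were divided between the organs, with 3 of 17 higher in bladder and 6 in urethra. The bladder share was near the 18.52% of all genes, and 16.2% of all genes were higher in urethra. The bladder count was 5 with the E18.5 libraries fitted alone or without replicate 1 of both E14.5 groups. Rspo1 had 43.5, 34.5 and 51.0 CPM in the bladder libraries and 4.09, 3.69 and 3.97 CPM in the urethral libraries. No urethral library reached the lowest bladder library (log2 ratio 3.45 ± 0.42, adjusted p = 7.26e-05). Its relative Rspo2 was the reverse, with 1.12, 0.644 and 0.960 CPM in bladder replicates 1 to 3 against 22.6, 24.2 and 26.7 CPM in urethral replicates 1 to 3. Urethra was the higher tissue in each library (log2 ratio -4.72 ± 0.55, adjusted p = 7.62e-05). Wnt2b was higher in bladder at 43.3 ± 7.16 against 4.92 ± 1.03 CPM (log2 ratio 3.14 ± 0.22, adjusted p = 1.37e-06), as was Wnt2 (log2 ratio 1.63 ± 0.25, adjusted p = 0.000411). Wnt5a, which acts largely outside the beta-catenin route, was higher in urethra at 58.5 ± 1.93 against 197 ± 45.9 CPM (log2 ratio -1.75 ± 0.25, adjusted p = 0.000197), and Wnt3, Rspo3, Wnt5b and Wnt11 followed with log2 ratios of -4.44, -1.70, -0.92 and -0.64. Wnt antagonists and feedback genes were higher in urethra in 8 of 17 members and in bladder in 3, the bladder share again near that of all genes. Dkk2 had levels of 20.9, 25.05 and 26.3 CPM in bladder and 226, 229.8 and 201 CPM in urethra over replicates 1 to 3. The lowest urethral library exceeded the highest bladder one (log2 ratio -3.18 ± 0.52, adjusted p = 0.000795). Wif1, which binds Wnt proteins, had 0.330 ± 0.103 against 6.196 ± 1.81 CPM (log2 ratio -4.26 ± 0.52, adjusted p = 6.98e-05). The 3 higher in bladder were the feedback inhibitors Nkd2 (log2 ratio 2.26 ± 0.37, adjusted p = 0.000725), Nkd1 (log2 ratio 1.55 ± 0.16, adjusted p = 2.34e-05) and Znrf3 (log2 ratio 0.73 ± 0.15, adjusted p = 0.0026). These 3 are themselves induced by Wnt signalling in many tissues, but genes of this kind lay on both sides. Axin2 (log2 ratio -0.57 ± 0.18, adjusted p = 0.0248) and Lef1 (log2 ratio -1.52 ± 0.23, adjusted p = 0.000282) were higher in urethra. The calls of Axin2 and Lef1 under the alternatives are not given here. Without single E18.5 libraries the call was lost (adjusted p) for Rspo3 (0.0847 without bladder replicate 1, 0.061 without bladder replicate 2 and 0.063 without urethral replicate 1) and Wnt11 (0.051 to 0.243 without bladder replicates 1, 2 and 3 or urethral replicate 2). The call also ended without the low-count filter for Rspo3 (adjusted p = 0.0764), in limma-voom for Wnt11 (adjusted p = 0.0897) and with the replicate number as a block for Wnt11 (adjusted p = 0.0931).

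In the bone morphogenetic protein (BMP) family the ligand and Id genes were balanced, with 6 of 15 higher in bladder and 5 in urethra. Of all genes, 34.8% were called. Bmp3 had 394, 295 and 332 CPM in the bladder libraries and 56.7, 116 and 102 CPM in the urethral libraries. Levels in bladder were above those in urethra throughout (log2 ratio 1.89 ± 0.38, adjusted p = 0.00256). Bmp6 had 43.2 ± 6.78 against 10.7 ± 1.5004 CPM (log2 ratio 2.01 ± 0.37, adjusted p = 0.00114). Gdf10 had 20.7, 42.5 and 37.95 CPM in bladder replicates 1 to 3 against 203, 176 and 204 CPM in urethral replicates 1 to 3. Between the tissues there was no overlap, urethra being higher (log2 ratio -2.53 ± 0.62, adjusted p = 0.00888). Gdf7, Gdf6, Gdf11 and Id3 were also higher in urethra, with log2 ratios of -3.73, -1.69, -1.04 and -0.43. A list of BMP and activin antagonists, which also holds 2 activin subunits, was higher in urethra in 5 of 14 members and in bladder in 3. Over all genes these shares were 16.2% and 18.52%. Inhba, the activin A subunit and a ligand, had levels of 5.42, 10.5 and 5.12 CPM in bladder and 110.4, 132 and 77.4 CPM in urethra over replicates 1 to 3. The groups did not overlap, with urethra higher (log2 ratio -3.95 ± 0.42, adjusted p = 4.86e-05). Inhbb, the activin B subunit and likewise a ligand, was the reverse at 15.7 ± 8.6005 against 2.31 ± 1.34 CPM (log2 ratio 2.77 ± 0.63, adjusted p = 0.00461). Of the antagonists proper, Grem1 was at 0.253 ± 0.166 against 10.02 ± 1.28 CPM (log2 ratio -5.34 ± 0.63, adjusted p = 5.55e-05), Nog at 3.03 ± 0.625 against 22.2 ± 2.73 CPM (log2 ratio -2.87 ± 0.31, adjusted p = 2.68e-05), and Fst and Chrdl1 had log2 ratios of -2.83 and -2.74. Fstl3 and Chrdl2 were higher in bladder (1.65 and 1.003), and 47.3% of the exons of Fstl3 overlap opposite-strand genes. Leaving out 1 E18.5 library ended the call, with this adjusted p, of Gdf7 (0.0555 to 0.123 without bladder replicates 1 and 3 or urethral replicates 1, 2 and 3), Id3 (0.0536 without bladder replicate 1) and Chrdl2 (0.0676 to 0.19 without bladder replicates 1 and 3 or urethral replicates 1, 2 and 3). A left-out library moved the fold by over 1.5 times, to the log2 ratio given, for Gdf7 (-7.27 without bladder replicate 2 and -3.02 without bladder replicate 3). Further, the call ended with median-ratio size factors for Chrdl2 (adjusted p = 0.0534), without the low-count filter for Chrdl2 (adjusted p = 0.0521) and Gdf7 (adjusted p = 0.11) and with the replicate number as a block for Chrdl2 (adjusted p = 0.0606).

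Fibroblast growth factor genes were called in 5 of 17 members, a smaller share than the 34.8% of all genes. Fgf10, a mesenchymal ligand for epithelial receptors, was at 10.8 ± 2.19 against 28.7 ± 0.537 CPM (log2 ratio -1.42 ± 0.32, adjusted p = 0.00412), and Etv4, a transcription factor induced by the pathway, at 1.96 ± 0.296 against 14.4 ± 1.87 CPM (log2 ratio -2.88 ± 0.36, adjusted p = 7.30e-05). Both were higher in urethra, as were the receptor Fgfr1 (log2 ratio -0.71 ± 0.14, adjusted p = 0.00196) and the phosphatase Dusp6 (log2 ratio -0.50 ± 0.18, adjusted p = 0.0425). The receptor Fgfr3 was higher in bladder (log2 ratio 0.88 ± 0.24, adjusted p = 0.0115). With the replicate number as a block 3 members were higher in bladder, and without bladder replicate 2 also 3. The call ended, at the adjusted p given, for Dusp6 (0.0725 to 0.146 without bladder replicate 2 or urethral replicates 1, 2 and 3) and Fgfr3 (0.0515 without bladder replicate 3).

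Sex steroid genes were higher in urethra in 7 of 11 members (median -1.77) in these female embryos. Esr1, the oestrogen receptor alpha, had 8.595, 14.3 and 12.7 CPM in the bladder libraries and 107, 71.7 and 82.0 CPM in the urethral libraries. Every urethral library lay above every bladder library (log2 ratio -2.88 ± 0.80, adjusted p = 0.0161). The 5-alpha-reductases, which convert testosterone to the more potent dihydrotestosterone, were opposite. Srd5a1 had 322, 240.0 and 362 CPM in bladder replicates 1 to 3 against 51.1, 61.7 and 79.2 CPM in urethral replicates 1 to 3. All 3 bladder libraries were the higher ones (log2 ratio 2.27 ± 0.41, adjusted p = 0.00149). Srd5a2 had 3 counts in all in bladder and 12.8, 9.38 and 11.7 CPM in the urethral libraries, a ratio of summed counts of 296 (95% counting interval 101 to 1435). The second member higher in bladder was Fkbp5, a chaperone of steroid receptors (log2 ratio 1.23 ± 0.15, adjusted p = 5.80e-05). With each library left out in turn, ratios of summed counts were 175 to 314 for Srd5a2 (at least 192 without bladder replicate 1). Calls that ended with 1 library left out (adjusted p) were those of Esr1 (0.0676 without bladder replicate 1 and 0.0535 without bladder replicate 3). Calls were lost as well without the low-count filter for Esr1 (adjusted p = 0.0615).

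Mesothelial genes were higher in bladder in 8 of 12 members (median 2.56), and 2 were higher in urethra with the E18.5 libraries fitted alone. Upk3b, which mesothelium shares with urothelium, had levels of 609, 552 and 748 CPM in bladder and 15.7, 41.8 and 54.8 CPM in urethra over replicates 1 to 3. No urethral library reached the lowest bladder library (log2 ratio 4.09 ± 0.56, adjusted p = 0.000272). Cldn15, a claudin, was at 27.4 ± 4.63 against 0.840 ± 0.306 CPM (log2 ratio 5.04 ± 0.74, adjusted p = 0.000338), and Gpm6a, a membrane glycoprotein, at 63.9 ± 15.6 against 3.80 ± 1.196 CPM (log2 ratio 4.09 ± 0.39, adjusted p = 1.51e-05). Complement genes were higher in bladder in 8 of 16 members (median 1.89). After C3, C1ra was at 30.6 ± 7.09 against 3.64 ± 1.49 CPM (log2 ratio 3.06 ± 0.54, adjusted p = 0.000951), C4b at 9.51 ± 2.16 against 1.38 ± 0.383 CPM (log2 ratio 2.80 ± 0.50, adjusted p = 0.000842) and C2 at 14.8 ± 3.51 against 1.76 ± 0.849 CPM (log2 ratio 3.08 ± 0.48, adjusted p = 0.000379), where 42.8% of the exons of C2 are shared with a gene on the same strand. The member higher in urethra was C1qa, a macrophage gene, at 19.3 ± 2.54 against 35.1 ± 2.37 CPM (log2 ratio -0.86 ± 0.25, adjusted p = 0.0178), and with the replicate number as a block 2 were. In DESeq2, in limma-voom and with the E18.5 libraries alone 3 complement genes were higher in urethra. Lipid storage and adipogenic genes were higher in bladder in 8 of 14 members and in urethra in 1. Pparg, the regulator of fat cell formation, had 59.4, 67.5 and 70.1 CPM in the bladder libraries and 7.87, 10.7 and 14.1 CPM in the urethral libraries. Bladder was the higher tissue in each library (log2 ratio 2.59 ± 0.38, adjusted p = 0.000303). Fabp4, a fatty acid carrier, was at 402 ± 182 against 51.9 ± 33.9 CPM (log2 ratio 2.95 ± 0.58, adjusted p = 0.00243). Cidea, a lipid droplet protein, was the member higher in urethra at 1.34 ± 0.699 against 5.92 ± 0.773 CPM (log2 ratio -2.12 ± 0.60, adjusted p = 0.0157). Without single E18.5 libraries the call was lost (adjusted p) for C1qa (0.069 without bladder replicate 3 and 0.0582 without urethral replicate 1) and Cidea (0.0586 without bladder replicate 1 and 0.0629 without bladder replicate 2).

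Fibroblast and interstitial cell genes were higher in bladder in 6 of 13 members and in urethra in 3, where 34.8% of all genes were called. Pi16, Dpp4 and Clec3b, markers of fibroblasts of outer connective tissue layers, were at 120.1 ± 25.9 against 11.2 ± 6.48 CPM, 51.7 ± 10.7 against 4.77 ± 1.12 CPM and 196 ± 39.7 against 21.6 ± 13.7 CPM, with log2 ratios of 3.43, 3.43 and 3.19. Thy1, a surface glycoprotein, had 61.4 ± 17.2 against 8.08 ± 1.56 CPM (log2 ratio 2.93 ± 0.46, adjusted p = 0.000579). Pdgfra, the receptor that marks most mesenchymal and interstitial cells, had 119, 175 and 149.9 CPM in bladder replicates 1 to 3 against 443, 480.2 and 508 CPM in urethral replicates 1 to 3. The lowest urethral library exceeded the highest bladder one (log2 ratio -1.69 ± 0.18, adjusted p = 2.34e-05). Kit, a receptor of pacemaker-type interstitial cells and mast cells, had 14.01 ± 3.54 against 52.5 ± 2.53 CPM (log2 ratio -1.901 ± 0.28, adjusted p = 0.00032), and the chemokine Cxcl12 had 209 ± 17.4 against 405 ± 51.2 CPM (log2 ratio -0.96 ± 0.15, adjusted p = 0.000442). All 3 were higher in urethra, without overlap between the groups.

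Urothelial and epithelial genes were higher in bladder in 9 of 21 members (median 1.12), although the epithelium had been pulled off both tissues. The uroplakins Upk2 (log2 ratio 3.11 ± 0.66, adjusted p = 0.00376), Upk3a (log2 ratio 3.16 ± 0.83, adjusted p = 0.0127), Upk1a (log2 ratio 2.56 ± 0.75, adjusted p = 0.0214) and Upk1b (log2 ratio 2.50 ± 0.65, adjusted p = 0.0114), plaque proteins of the urothelium, led the list. Upk1b had levels of 1464, 1674 and 2008 CPM in bladder and 182, 337 and 390.5 CPM in urethra over replicates 1 to 3. Krt15, a basal keratin and the most abundant member that was not called, had 1358, 778 and 1251 CPM in the bladder libraries and 1098, 1601 and 1265 CPM in the urethral libraries. The groups overlapped (log2 ratio -0.23 ± 0.66, adjusted p = 0.833). The count of 9 depends on which libraries enter the fit. It was 15 with the E18.5 libraries alone or without replicate 1 of both E14.5 groups, 2 without urethra replicate 1, 5 without bladder replicate 3 and 3 without the low-count filter. Squamous epithelial genes were higher in urethra in 6 of 13 members and in bladder in 2. Krt13, a keratin of stratified epithelium, had 4.56, 5.95 and 3.52 CPM in bladder replicates 1 to 3 against 181, 302 and 166 CPM in urethral replicates 1 to 3. Levels in urethra were above those in bladder throughout (log2 ratio -5.55 ± 0.39, adjusted p = 3.12e-06). The desmosomal cadherin Dsg3 had 0.399 ± 0.270 against 19.98 ± 10.004 CPM (log2 ratio -5.55 ± 0.91, adjusted p = 0.000707). Ivl (log2 ratio 2.25 ± 0.73, adjusted p = 0.0338) and Perp (log2 ratio 1.39 ± 0.48, adjusted p = 0.046) were the members higher in bladder. Leaving out 1 E18.5 library ended the call, with this adjusted p, of Upk3a (0.0537 without urethral replicate 1), Upk1a (0.0547 without bladder replicate 3, 0.0846 without urethral replicate 1 and 0.0678 without urethral replicate 2), Upk1b (0.0523 without urethral replicate 1), Ivl (0.0676 to 0.122 over the 6 libraries, each left out in turn) and Perp (0.0869 to 0.137 over the 6 libraries, each left out in turn). The call also ended without the low-count filter for Ivl (adjusted p = 0.113), Perp (adjusted p = 0.139), Upk1a (adjusted p = 0.0785) and Upk3a (adjusted p = 0.0519) and with median-ratio size factors for Perp (adjusted p = 0.0517).

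**Figure D4:**
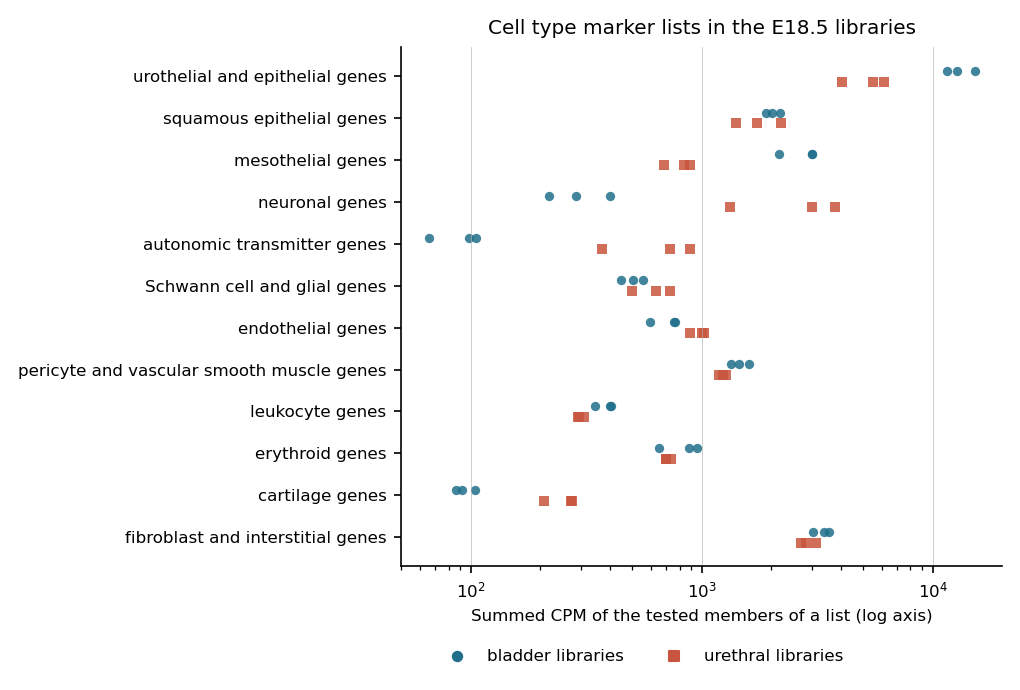
Summed level of the tested members of marker lists of cell types in each of the 6 libraries (CPM, log axis), with circles for bladder and squares for urethra. The urothelial and epithelial, mesothelial, pericyte and vascular smooth muscle, and leukocyte sums lie higher in bladder. The neuronal, autonomic, endothelial and cartilage sums lie higher in urethra, and the squamous, glial, erythroid and fibroblast sums overlap.

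Neuronal genes were called higher in urethra in all 16 members (median -3.44), and autonomic transmitter genes in 14 of 16 (median -3.55). The smallest of the 16 was Hand2, also a factor of smooth muscle (log2 ratio -0.55 ± 0.19, adjusted p = 0.0412). Tubb3, the neuronal tubulin, had levels of 10.2, 12.9 and 23.3 CPM in bladder and 97.3, 346 and 272 CPM in urethra over replicates 1 to 3. Between the tissues there was no overlap, urethra being higher (log2 ratio -3.94 ± 0.68, adjusted p = 0.00108). Snap25 and Syt1, which release transmitter vesicles, had log2 ratios of -3.79 and -3.78. Noradrenergic genes were represented by Th (1.71 ± 0.710 against 43.2 ± 11.8 CPM, log2 ratio -4.64 ± 0.50, adjusted p = 3.46e-05) and Dbh (3.59 ± 1.55 against 71.9 ± 19.8 CPM, log2 ratio -4.31 ± 0.54, adjusted p = 0.000145), the enzymes of noradrenaline synthesis. Nos1, the neuronal nitric oxide synthase, had 9.94, 10.3 and 13.7 CPM in the bladder libraries and 40.7, 208 and 145 CPM in the urethral libraries. The groups did not overlap, with urethra higher (log2 ratio -3.53 ± 0.74, adjusted p = 0.00351). Vip, a peptide of parasympathetic neurons, was at 4.82 ± 2.50 against 88.4 ± 53.0 CPM (log2 ratio -4.19 ± 1.05, adjusted p = 0.00956). Chat, the enzyme that makes acetylcholine, was at 0.561 ± 0.401 against 4.42 ± 1.49 CPM (log2 ratio -2.92 ± 0.64, adjusted p = 0.00363). In Th, Vip and Nos1 the first urethral library was the lowest of the 3 and still above every bladder library. The call ended, at the adjusted p given, for Hand2 (0.0511 to 0.217 without bladder replicates 1, 2 and 3 or urethral replicates 2 and 3). The fold moved by over 1.5 times with a library left out (log2 ratio given) for Chat (-3.72 without bladder replicate 3). Further, the call ended in limma-voom for Hand2 (adjusted p = 0.0502) and with the E18.5 libraries fitted alone for Hand2 (adjusted p = 0.0503).

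Schwann cell and glial genes were higher in urethra in 8 of 14 members (median -1.31). Fabp7, a lipid-binding protein of immature glia, was at 7.18 ± 1.35 against 41.2 ± 14.1 CPM (log2 ratio -2.52 ± 0.40, adjusted p = 0.000485), Sox10, the factor that specifies glia, at 7.23 ± 0.885 against 24.0 ± 5.14 CPM (log2 ratio -1.73 ± 0.33, adjusted p = 0.00148), and Ngfr at 23.8 ± 2.89 against 106 ± 43.4 CPM (log2 ratio -2.15 ± 0.32, adjusted p = 0.000319). Neurotrophic factors and their receptors were higher in urethra in 7 of 13 members. Ntrk2, the receptor of brain-derived neurotrophic factor, had 13.2, 21.5 and 17.1 CPM in bladder replicates 1 to 3 against 153, 199.998 and 148 CPM in urethral replicates 1 to 3. Every urethral library lay above every bladder library (log2 ratio -3.28 ± 0.62, adjusted p = 0.00204). Ntrk3, the neurotrophin-3 receptor, was at 16.7 ± 1.07 against 104 ± 16.1 CPM (log2 ratio -2.64 ± 0.51, adjusted p = 0.00227), and Gdnf, the ligand that guides enteric and autonomic neurons, at 0.438 ± 0.379 against 6.09 ± 1.05 CPM (log2 ratio -3.81 ± 0.60, adjusted p = 0.000401). A left-out library moved the fold by over 1.5 times, to the log2 ratio given, for Gdnf (-4.78 without bladder replicate 1).

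Endothelial genes were higher in urethra in 7 of 18 members and in bladder in 1, where 34.8% of all genes were called. Prox1, a regulator of lymphatic endothelium that is also made in other cells, was at 4.54 ± 0.975 against 33.5 ± 4.05 CPM (log2 ratio -2.88 ± 0.38, adjusted p = 0.000129), and the vessel markers Plvap (log2 ratio -1.13 ± 0.27, adjusted p = 0.00656) and Emcn (log2 ratio -0.99 ± 0.23, adjusted p = 0.00444) differed less. Lyve1, a hyaluronan receptor of lymphatic vessels and some macrophages, had levels of 98.4, 87.0 and 76.5 CPM in bladder and 6.98, 19.8 and 15.5 CPM in urethra over replicates 1 to 3. All 3 bladder libraries were the higher ones (log2 ratio 2.64 ± 0.30, adjusted p = 5.59e-05). The urethral count was 12 with the E18.5 libraries fitted alone and 4 without bladder replicate 3 or urethra replicate 1. Among 11 pericyte and vascular smooth muscle genes, 3 were higher in bladder and 5 in urethra, again beside 34.8% of all genes called. The 3 were Ndufa4l2 (2.1996), Cspg4 (1.30) and Mcam (0.96), and the 5 were Kcnj8 (-1.87), Abcc9 (-1.64), Heyl (-1.59), Notch3 (-0.88) and Pdgfrb (-0.88), all as log2 ratios. Calls that ended with 1 library left out (adjusted p) were those of Ndufa4l2 (0.0526 without urethral replicate 2), Kcnj8 (0.0751 without bladder replicate 1, 0.0696 without bladder replicate 3 and 0.0525 without urethral replicate 2) and Abcc9 (0.0558 to 0.131 over the 6 libraries, each left out in turn). Calls were lost as well without the low-count filter for Abcc9 (adjusted p = 0.119), Kcnj8 (adjusted p = 0.0628) and Ndufa4l2 (adjusted p = 0.0519).

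Leukocyte genes were called in 6 of 14 members, a share not far from the 34.8% of all genes. Mrc1, a macrophage receptor, had 186, 173 and 145 CPM in the bladder libraries and 48.9, 70.4 and 56.2 CPM in the urethral libraries. No urethral library reached the lowest bladder library (log2 ratio 1.52 ± 0.21, adjusted p = 0.000145). The mast cell proteases Cpa3 (log2 ratio 1.84 ± 0.38, adjusted p = 0.00247), Mcpt4 (log2 ratio 2.42 ± 0.55, adjusted p = 0.00589) and Cma1 (log2 ratio 2.09 ± 0.61, adjusted p = 0.0182) were also higher in bladder, while Kit and Itgam (log2 ratio -1.19 ± 0.42, adjusted p = 0.0446) were higher in urethra, and 68.7% of the exons of Itgam overlap a gene on the same strand. Cell division genes were higher in bladder in 12 of 22 members (median 0.46), by small factors. Mki67, a marker of cycling cells, had 396, 282 and 322 CPM in bladder replicates 1 to 3 against 216, 159 and 166 CPM in urethral replicates 1 to 3. Bladder was the higher tissue in each library (log2 ratio 0.89 ± 0.18, adjusted p = 0.0025). Plk1, a mitotic kinase, had a log2 ratio of 0.93, Cenpf, a centromere protein, of 0.85, and Tpx2, a spindle protein, of 0.68. Without single E18.5 libraries the call was lost (adjusted p) for Cma1 (0.0626 without bladder replicate 2, 0.0754 without urethral replicate 1 and 0.065 without urethral replicate 2) and Itgam (0.0754 to 0.128 without bladder replicates 1, 2 and 3 or urethral replicates 1 and 2). The call also ended without the low-count filter for Itgam (adjusted p = 0.0846).

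**Figure D5:**
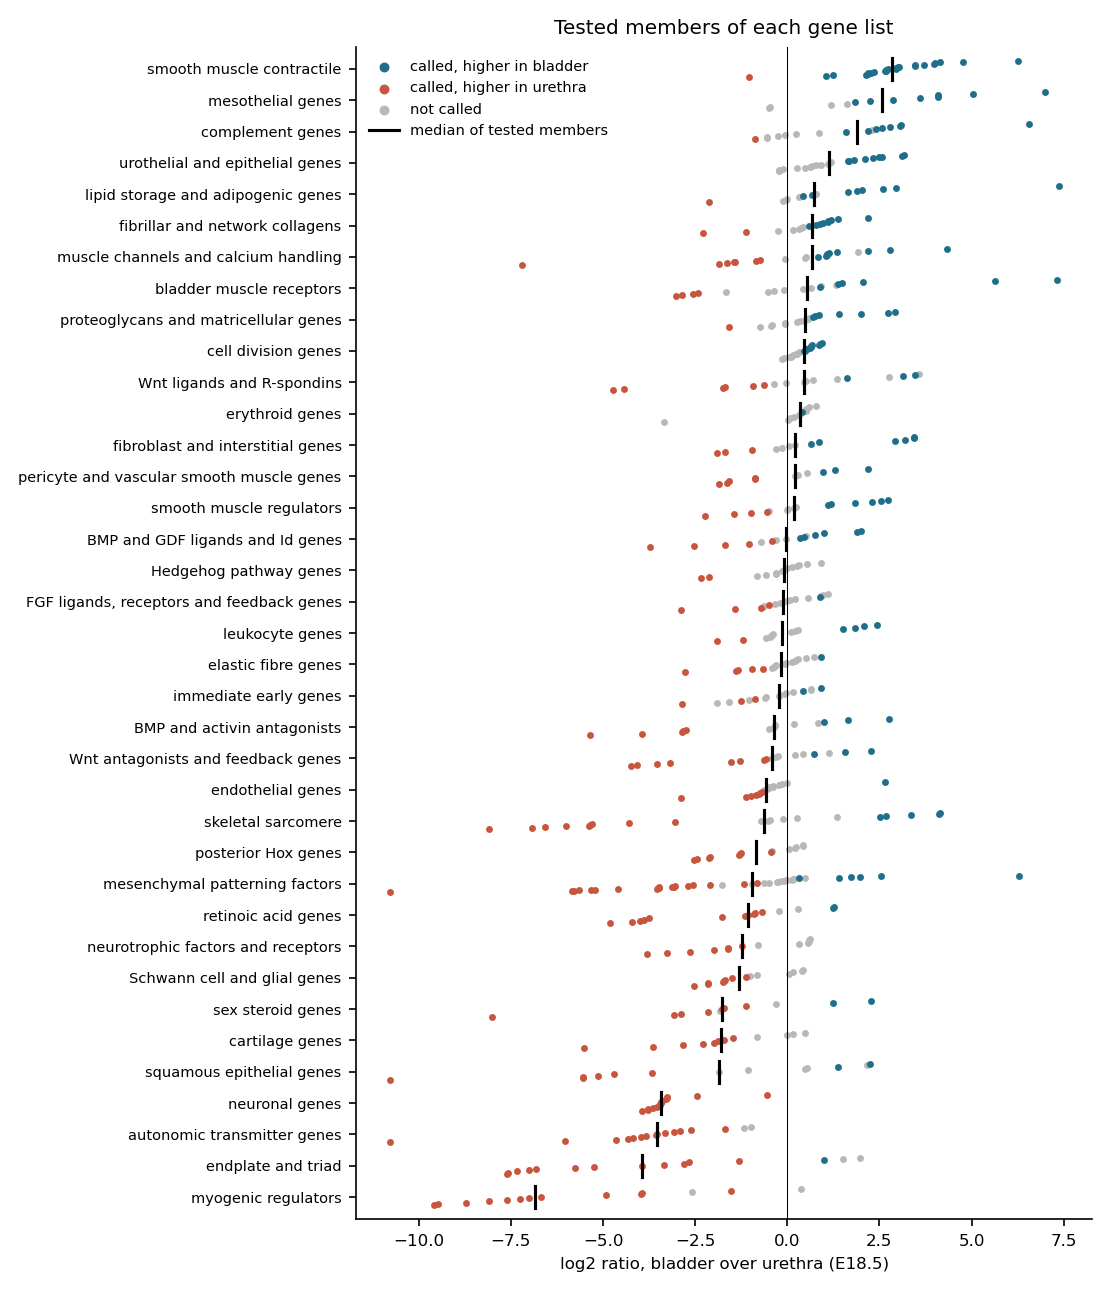
Log2 ratio, bladder over urethra, of each tested member of the 37 gene lists (points), with called members in colour and the median of each list marked. Smooth muscle contractile and mesothelial lists lie to the right of the all-gene median of 0.05, and the myogenic, endplate, neuronal and autonomic lists lie to its left.

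The 16 well expressed genes named above for the largest folds at E18.5 were compared with their difference at E14.5, in the same model. For 7 of the 16 the difference itself changed between the stages (8.67% of all genes tested), but the 16 were chosen for a large E18.5 difference, which favours a change in that direction. P2rx1 was at 5.02 ± 1.66 CPM in bladder and 0.632 ± 0.174 CPM in urethra at E14.5, and its log2 ratio grew from there to E18.5 by 4.33 ± 0.59, adjusted p = 0.00237. Synm was at 12.7 ± 13.2 CPM in bladder and 5.20 ± 2.10 CPM in urethra at E14.5, a change of 4.96 ± 0.98, adjusted p = 0.0124. C3 was at 1.18 ± 0.681 CPM in bladder and 0.261 ± 0.168 CPM in urethra at E14.5, a change of 4.37 ± 0.77, adjusted p = 0.00651. Myod1 moved the other way, by -6.72 ± 1.56, adjusted p = 0.0247, from 0.607 ± 0.0754 CPM in bladder and 4.16 ± 5.23 CPM in urethra at E14.5, and Myog by -6.002 ± 1.47, adjusted p = 0.0309. The others called were Npy6r (6.67 ± 1.76, adjusted p = 0.0405) and Pkhd1l1 (3.39 ± 0.87, adjusted p = 0.0347). Under the alternatives run, 3 to 10 of the 16 were called. The calls of P2rx1, C3 and Synm held in all of them. That of Pkhd1l1 ended with the replicate number as a block (adjusted p = 0.074) and that of Npy6r in limma-voom (adjusted p = 0.167). Without the low-count filter the adjusted p was 0.124 for Npy6r, 0.111 for Pkhd1l1, 0.0813 for Myod1 and 0.0989 for Myog. With single libraries left out, named in parentheses, the adjusted p was 0.0565 to 0.46 for Npy6r (bladder E14.5 replicate 2, bladder E14.5 replicate 3, urethral E14.5 replicate 1, urethral E14.5 replicate 2, bladder E18.5 replicate 1, bladder E18.5 replicate 2, urethral E18.5 replicate 1 and urethral E18.5 replicate 3), 0.0552 to 0.098 for Pkhd1l1 (bladder E14.5 replicate 2, urethral E14.5 replicate 2, bladder E18.5 replicate 1, bladder E18.5 replicate 2, bladder E18.5 replicate 3, urethral E18.5 replicate 1 and urethral E18.5 replicate 2), 0.0521 to 0.0739 for Myod1 (bladder E14.5 replicate 2, bladder E14.5 replicate 3, bladder E18.5 replicate 1 and bladder E18.5 replicate 3) and 0.0564 to 0.0803 for Myog (bladder E14.5 replicate 2, urethral E14.5 replicate 3, bladder E18.5 replicate 1, bladder E18.5 replicate 2, urethral E18.5 replicate 1 and urethral E18.5 replicate 2). The size of the change moved by over 1.5 times as a fold under some alternatives. It was for Synm 5.93 without replicate 1 of both E14.5 groups and 6.25 without bladder E14.5 replicate 1. It was for Npy6r 7.80 without replicate 1 of both E14.5 groups, 7.53 without bladder E14.5 replicate 1, 6.08 without bladder E14.5 replicate 2, 4.83 without urethral E14.5 replicate 2 and 7.68 without urethral E18.5 replicate 2. It was for Pkhd1l1 2.33 without urethral E14.5 replicate 2 and 4.33 without urethral E18.5 replicate 3. It was for Myod1 -7.74 in limma-voom, -8.69 without replicate 1 of both E14.5 groups, -7.36 with the replicate number as a block and -8.59 without urethral E14.5 replicate 1. It was for Myog -7.98 in limma-voom, -7.93 without replicate 1 of both E14.5 groups, -6.70 with the replicate number as a block, -7.92 without urethral E14.5 replicate 1, -5.40 without bladder E18.5 replicate 1 and -7.61 without bladder E18.5 replicate 3. Plin4 and Gata4 were not called as changed (-1.27 ± 2.77, adjusted p = 0.83 and 0.98 ± 0.61, adjusted p = 0.35). The change of Plin4 turned positive without bladder E14.5 replicate 1 (1.06), without replicate 1 of both E14.5 groups (1.04) and in limma-voom (1.83), and that of Gata4 was 0.28 without urethral E14.5 replicate 2.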

How the data were processed

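RNA was measured in 12 libraries of dissected mouse mesenchyme, of which the 6 of E18.5 are compared. Per the labels' protocols, libraries were directional, made from poly(A) RNA and read as pairs of 100 bp. GRCm38, bcl2fastq, HISAT2 2.2.1 and SAMtools 1.9 are listed in the submitters' processing notes. How reads were assigned to genes, with which annotation and whether by strand, is not given in the sources used here, so overlapping and antisense genes cannot be told apart. The authors deposited raw counts for each gene, without normalization. In the E18.5 libraries 2.13 to 2.51 times as many genes had a count of 2 as had a count of 1, so the intervals and floors given, which hold only for counting error, may be too narrow.

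The low-count filter was filterByExpr of edgeR 4.0.16 (minimum count 10), followed by TMM scaling and the robust quasi-likelihood F test (R 4.3.3). A single model held 4 group means over 12 libraries and left 8 residual degrees of freedom. Benjamini-Hochberg adjustment ran over all 18805 genes. Alternatives were DESeq2 1.42.0, limma 3.58.1 voom, median-ratio size factors, no filter, a stricter filter, other sets of libraries, a replicate block and leaving out each library. Those for the change between stages were chosen after seeing the data. The script was tested on simulated data. Whether a replicate number stands for 1 litter in both tissues is not in the labels. Residuals of bladder and urethral E18.5 libraries with the same number correlated at 0.197, 0.193 and 0.286, so the numbers were taken to pair the samples. All other pairs correlated negatively. That is no separate evidence, because residuals cancel within a group, and positive same-number pairs then force negative values among the rest on average. Results are from the fit without the block. The blocked value stands beside a named gene, Axin2 and Lef1 apart, where it changes the call, and beside a list where it moves the count by over 1.5 times.

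The comparison and the 37 gene lists were chosen with earlier results of these data known. Genes were named by rule, all called and without overlap. Per direction these were the 8 with the largest fold and a mean of at least 5 CPM in the higher group. The 6 with the largest difference in CPM among genes at least 2-fold apart were added. Predicted genes, clone names, pseudogenes and mitochondrial genes were left out of this naming. Each list gave up to 4 called members with the largest differences, and its most abundant uncalled member. Some list members, such as Srf, Chrm2, Chrm3, Isl1, Wnt2, Wnt5a, Pdgfra, Kit and those that complete a count of up to 6, were chosen after their values were seen. For groups without a count the fold is a lower bound, computed against 3 counts in the whole group, and for 1 to 3 counts an exact binomial 95% interval is given. Promoters came from the RefSeq table for GRCm38.p6. Some members of the lists are counted but not reported here by name.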

Additional observations from a re-analysis of the deposited data

Results flagged for a closer look

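The difference between bladder and urethra itself differed between E14.5 and E18.5 for 7 of the 16 well expressed genes named for the largest folds at E18.5. This is by the test of that change across all genes. On the log2 scale the change, E18.5 minus E14.5, was 4.33 for P2rx1, 6.67 for Npy6r, 3.39 for Pkhd1l1, 4.37 for C3 and 4.96 for Synm, all towards bladder. It was -6.72 for Myod1 and -6.00 for Myog, towards urethra. The genes were selected for large E18.5 differences, so the directions are fixed in part by that choice. Groups of 3 libraries were too small for a check of single outlying samples.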

How the results depend on the processing

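The counts of genes higher in bladder (3482) and in urethra (3053) stayed within 1.5 times under every alternative run. With 1 E18.5 library left out, they ranged from 2573 to 3017 and from 2546 to 2628. With the replicate number as a block they were 3476 and 3083, with the E18.5 libraries alone 3562 and 3733, and with median-ratio size factors 3238 and 3163. Of the 6535 genes called, 5049 to 6407 were also called in the same direction under each alternative. Axin2 and Lef1 are left out of the counts of named genes that follow. Of 208 called genes that the text names, 35 lost the call under at least 1 alternative, and for the 210 genes named, called or not, the direction was the same throughout. The replicate block ended the call of Chrdl2 (adjusted p = 0.0606), Fosl2 (adjusted p = 0.0824), Ihh (adjusted p = 0.054) and Wnt11 (adjusted p = 0.0931), and of no other of these 210 genes at E18.5. For the change between stages, 7 of 16 genes were called, 3 without the low-count filter, and 3 to 8 with 1 library left out. The cause was not tested. Low-count genes are limited by depth, since 3 counts were 0.0761 to 0.161 CPM.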

Other observations

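Immediate early genes respond within minutes to handling and stress of cells. Of 17 tested members, 2 were called higher in bladder and 3 in urethra (median -0.23), together a smaller share than the 34.8% of all genes. Zfp36, which destabilises messenger RNA, was at 69.9 ± 2.94 against 37.1 ± 2.82 CPM (log2 ratio 0.91 ± 0.18, adjusted p = 0.00175), and Fosl2, a partner of Jun, at 269.6 ± 41.97 against 202 ± 6.54 CPM (log2 ratio 0.41 ± 0.15, adjusted p = 0.0459). Jun itself was higher in urethra at 82.6 ± 4.99 against 152 ± 13.7 CPM (log2 ratio -0.88 ± 0.14, adjusted p = 0.000338), as were the zinc finger factors Egr1 (17.7 ± 0.494 against 42.7 ± 11.2 CPM, log2 ratio -1.27 ± 0.35, adjusted p = 0.0141) and Egr3 (0.442 ± 0.180 against 3.18 ± 2.30 CPM, log2 ratio -2.86 ± 0.72, adjusted p = 0.0081). Without urethra replicate 1, 6 members were higher in urethra. Of 11 erythroid genes, only Hba-a1, an alpha-globin, was called, a smaller share than the 34.8% of all genes. Hba-a1 was at 328 ± 13.3 against 249.8 ± 8.34 CPM (log2 ratio 0.39 ± 0.13, adjusted p = 0.0297). With the replicate number as a block, 2 erythroid genes were higher in bladder. Leaving out 1 E18.5 library ended the call, with this adjusted p, of Fosl2 (0.0849 to 0.15 without bladder replicates 1 and 3 or urethral replicates 1, 2 and 3), Egr1 (0.061 without urethral replicate 2) and Hba-a1 (0.0641 to 0.0964 without bladder replicates 2 and 3 or urethral replicates 1, 2 and 3). The fold moved by over 1.5 times with a library left out (log2 ratio given) for Egr3 (-2.09 without urethral replicate 2). Further, the call ended in DESeq2 for Fosl2 (adjusted p = 0.0584), with median-ratio size factors for Fosl2 (adjusted p = 0.0671), without the low-count filter for Fosl2 (adjusted p = 0.0536) and Hba-a1 (adjusted p = 0.051), with the E18.5 libraries fitted alone for Fosl2 (adjusted p = 0.061), without replicate 1 of both E14.5 groups for Fosl2 (adjusted p = 0.0529) and with the replicate number as a block for Fosl2 (adjusted p = 0.0824).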
